A study of Mus musculus with 6 samples.

Results

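The simple epithelial keratins Krt7, Krt8, Krt18, Krt19, Krt20 and Krt23 were followed in epithelial cells of mouse small intestine in which, by the genotype label, N-cadherin replaces E-cadherin. They are 6 of the 18193 genes that the array reads through probe sets with a single gene symbol, and 6 of the 12994 genes tested. Every probe set paired with a single listed keratin was included, 8 in all: 3 for Krt8 and 1 for each other gene. All 8 reached the intensity of 16 used as a floor on every array, so no keratin was lost to the filter on dim signals.

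Keratins are the intermediate filament proteins of epithelial cells. A type I chain (here Krt18, Krt19, Krt20 and Krt23) pairs with a type II chain (here Krt7 and Krt8), the pairs assemble into filaments, and desmosomes anchor those filaments at cell borders. In gut epithelium Krt8 is the main type II partner of Krt18, Krt19 and Krt20, and Krt20 marks differentiated cells of the villus.

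The cells, detached with EDTA from rinsed small intestine, were taken from 14 day old C57BL/6 mice, and total RNA was hybridized to 1 Affymetrix array per sample. The 3 replacement samples had the genotype Ecadflox/Ncad;Vil-Cre, in which a recombinase driven by the villin promoter of gut epithelium acts on the floxed E-cadherin gene. The 3 control samples were E-cadherin-positive littermates, and the sources used here do not give the state of the floxed allele, the N-cadherin allele or Vil-Cre in them. The labels do not name the animals behind the samples, so the p-values rest on the spread between these 6 arrays, which may be technical.

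Intensities had been scaled to a mean of 100 per array, with 2% trimmed at either end, and 55.1% to 61.8% of probe sets reached 16. Control 2 and control 3 were nearly alike, with an SD of their log2 ratio of 0.115 over 5109 bright probe sets, against 0.347 to 0.564 for the other pairs within a group. They were averaged and counted as 1 replicate, which gave n = 2 control and n = 3 replacement replicates. Cdh1 (E-cadherin) read 2204 to 2757 in control and 1073 to 1357 in replacement arrays and was lower by limma (log2 difference -1.06, SE 0.240, adjusted p = 0.0250), so the signal of its probe set was reduced and not lost. Whether that probe set lies in the part that the recombinase removes is unknown here, so the remaining signal does not measure intact E-cadherin transcript. Both probe sets of Cdh2 (N-cadherin) stayed under 16 on every array, with a highest intensity of 13.5. Whether these probes match the inserted N-cadherin is unknown here, so they do not check the labels. Villin (Vil1), a marker of gut epithelium, was bright on all arrays, at a geometric mean of 2995 in controls and 3049 in replacement samples. By Xist and Y-linked transcripts, control 1, replacement 2 and replacement 3 were female and the other arrays male, so each control replicate was of a single sex.

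Of the 6 keratin genes, 4 rose in replacement samples (limma, adjusted p under 0.05) and none fell, where 4.46% of all tested genes were higher. Krt23 rose 7.49-fold and Krt7 6.21-fold, whereas Krt20 rose 2.55-fold and Krt19 2.41-fold. Krt18 was 1.70-fold and Krt8 1.32-fold higher, and neither passed. Without the filter on dim probe sets none of the 4 passed, at adjusted p of 0.0651 to 0.234 with the same differences. In all 6 genes every replacement array lay above every control array, which held for 17.8% of the genes tested. The median log2 difference (replacement minus control) of the 6 was 1.31, against -0.02 over all genes. In bulk RNA of this kind, more cells that carry a transcript and more transcript per cell cannot be told apart.

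**Figure D1:**
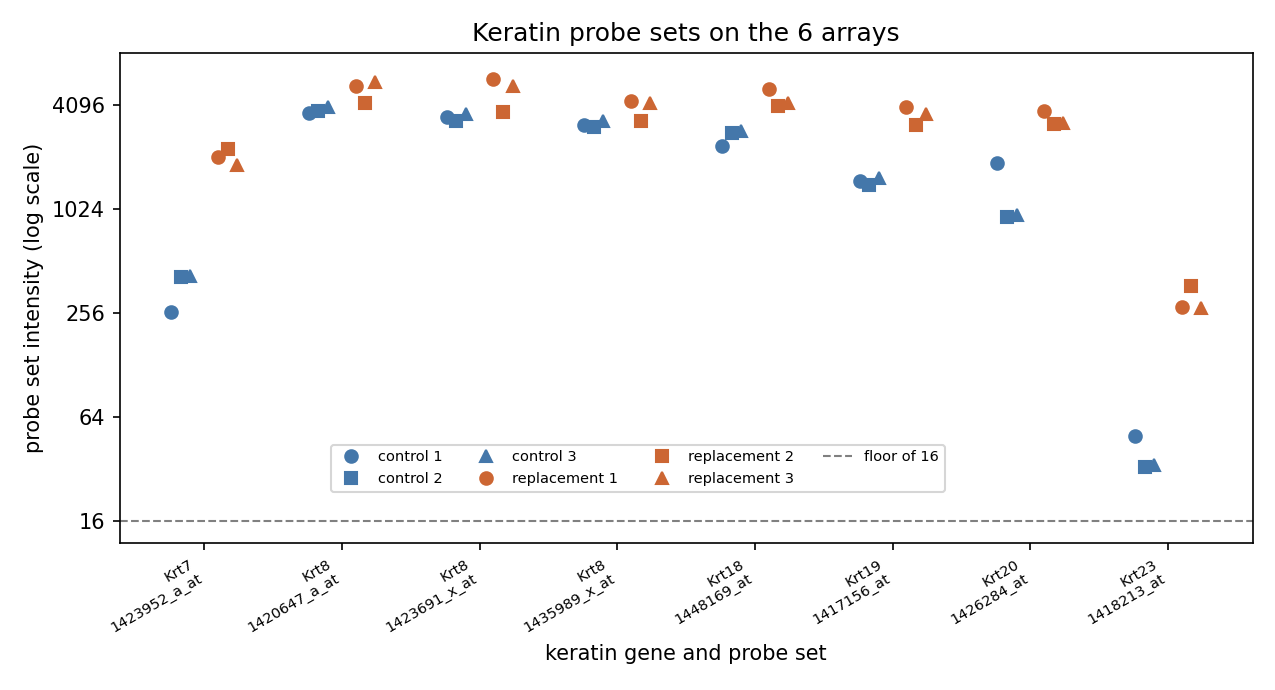
Intensity (log scale) of the 8 keratin probe sets on each of the 6 arrays, with control arrays in blue, replacement arrays in orange and the symbol giving the replicate number. The replacement arrays lie above the control arrays for each probe set, far apart for Krt7 and Krt23 and close together for the 3 probe sets of Krt8.

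The stretches of DNA before 4 of these genes are shown because 3 of them (Krt7, Krt20 and Krt23) rose and Krt8 had the smallest difference. Each line gives the 250 bases that precede the annotated gene start, 5′ to 3′ on the gene's strand, from RefSeq on GRCm38.p6, whose table held 5 of the 6 genes (Krt19 was not matched). Capitals mark matches, on either strand, to any of 5 motifs: TATAAA (core of the TATA box), GGGCGG (GC box, bound by Sp and KLF factors), TGANTCA (AP-1), GGAATG (TEAD factors) and TTTATG (a form of the CDX site).
Krt7, chr15:101412153-101412402, plus strand: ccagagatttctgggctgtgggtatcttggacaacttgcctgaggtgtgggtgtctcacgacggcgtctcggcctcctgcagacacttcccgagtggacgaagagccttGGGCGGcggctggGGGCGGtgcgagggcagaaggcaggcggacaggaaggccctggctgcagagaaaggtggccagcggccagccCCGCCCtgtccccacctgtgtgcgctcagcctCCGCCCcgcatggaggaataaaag
Krt20, chr11:99438154-99438403, minus strand: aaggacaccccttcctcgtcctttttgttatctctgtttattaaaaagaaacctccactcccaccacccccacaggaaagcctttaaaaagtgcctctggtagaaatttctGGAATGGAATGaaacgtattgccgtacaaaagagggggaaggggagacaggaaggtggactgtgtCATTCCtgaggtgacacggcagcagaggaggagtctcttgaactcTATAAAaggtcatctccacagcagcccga
Krt23, chr11:99493121-99493370, minus strand: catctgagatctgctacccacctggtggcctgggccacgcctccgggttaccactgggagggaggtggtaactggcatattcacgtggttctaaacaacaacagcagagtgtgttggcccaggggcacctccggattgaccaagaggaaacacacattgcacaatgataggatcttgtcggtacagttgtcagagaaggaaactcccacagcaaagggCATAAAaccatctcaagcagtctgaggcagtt
Krt8, chr15:102004343-102004592, minus strand: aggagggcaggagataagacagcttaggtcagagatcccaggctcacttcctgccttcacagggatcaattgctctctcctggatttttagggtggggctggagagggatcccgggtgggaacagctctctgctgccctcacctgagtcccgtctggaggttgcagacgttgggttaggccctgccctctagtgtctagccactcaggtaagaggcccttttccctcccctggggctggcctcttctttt

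None of the 5 motifs was found in more than 1 of the 4 windows. The Krt7 window held 4 GC boxes and was 66.0% G or C, where the median over 32851 promoter windows of the same length was 52.4%. Of those windows 32.7% held at least 1 GC box and 8.47% held 3 or more. The Krt20 window held a TATA box core 24 to 29 bases before the start, as 12.4% of windows did anywhere in the 250 bases. It also held 3 matches to the TEAD motif, of which 2 overlap by 1 base. At least 1 such match was found in 12.6% of windows and 3 or more in 0.0913%. The shares with 3 or more, for GC boxes and for this motif, were added after the matches had been seen. Krt23 had 1 match to the CDX form, on the opposite strand 27 to 32 bases before the start, as 10.8% of windows did anywhere. On the gene's strand this match reads CATAAA, close to the TATAAA searched for the TATA box core. Krt8 and Krt18 had no match to any of the 5 motifs, and no window of the 5 genes held the AP-1 motif, present in 6.75% of all windows. A match is a run of letters and not a measured binding site.

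Among the type II chains, Krt7, a keratin typical of ductal and bladder epithelia, changed most. Its probe set 1423952_a_at read 261, 412 and 423 in the control arrays and 2046, 2293 and 1834 in the replacement arrays. The groups were far apart, and control 1 was the lowest array. The geometric mean went from 330 (SD 0.48 on the log2 scale, n = 2) to 2049 (SD 0.16, n = 3), a log2 difference of 2.63 (SE 0.272, limma adjusted p = 6.42e-04), larger than that of 99.6% of the genes tested. The 95% interval of the fold ran from 4.07 to 9.48. Without control 1 the log2 difference was 2.30 (adjusted p = 0.0667) and without control 2 and control 3 it was 2.97 (adjusted p = 0.0680), so the call was lost when either control replicate was left out although the difference stayed above 2.

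Krt8, the general type II keratin of simple epithelia, differed little. Probe set 1420647_a_at, the brightest of its 3 and the one that stood for the gene, read 3661, 3793 and 3978 in the controls and 5309, 4185 and 5545 in the replacement arrays. Replacement 2 lay just above the highest control, and the other replacement arrays clearly above it. The log2 difference was 0.40 (SE 0.240, n = 2 and 3, limma adjusted p = 0.352), with a 95% interval of -0.14 to 0.94. The probe sets 1423691_x_at and 1435989_x_at, whose suffix marks probes that may also bind related transcripts, gave 0.48 (SE 0.268) and 0.31 (SE 0.239). On both, replacement 2 again sat closest to the controls, at 3758 against a highest control of 3645 for the first and at 3327 against 3303 for the second. No probe set of Krt8 passed, and the interval still allows a fold of up to 1.92. On every array at least 99.5% of all probe sets were dimmer than each of the 3 Krt8 probe sets. Whether differences are compressed at such brightness was not tested.

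Krt18, the usual type I partner of Krt8, was intermediate. Its probe set 1448169_at read 2377, 2820 and 2896 in the controls and 5039, 4067 and 4213 in the replacement arrays. The lowest replacement array was well above the highest control. The log2 difference was 0.76 (SE 0.239, n = 2 and 3), with a limma adjusted p of 0.0816 (unadjusted p = 0.0103) and a 95% interval of the fold from 1.17 to 2.46. It passed with control 2 and control 3 as separate replicates (0.72, adjusted p = 0.0267).

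Krt19, a short type I keratin of ductal and glandular cells, was the steadiest of those that rose. Probe set 1417156_at read 1491, 1415 and 1543 in the controls and 3965, 3160 and 3630 in the replacement arrays. The control replicates were almost equal, and the lowest replacement array was far above any control. The log2 difference was 1.27 (SE 0.232, n = 2 and 3, limma adjusted p = 0.0103). It was 1.27 without control 1 (adjusted p = 0.137), 1.26 without control 2 and control 3 (adjusted p = 0.154) and 1.25 without replacement 3 (adjusted p = 0.0594). The size of the difference thus barely moved while the call was lost.

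Krt20, the keratin of differentiated villus cells, split the controls. Probe set 1426284_at read 1882 in control 1 but 925 and 946 in control 2 and control 3, and 3798, 3167 and 3231 in the replacement arrays. Control 1 was 2.01-fold above the other control replicate, and all replacement arrays were above control 1. The log2 difference was 1.35 (SE 0.312, n = 2 and 3, limma adjusted p = 0.0274), with SDs of 0.71 in controls and 0.14 in replacement samples. Against control 1 alone it was 0.85 (adjusted p = 0.224) and against control 2 and control 3 alone 1.86 (adjusted p = 0.0768). The call was also lost without replacement 1 (1.27, adjusted p = 0.0546), replacement 2 (1.40, adjusted p = 0.0781) or replacement 3 (1.39, adjusted p = 0.111).

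Krt23, a type I keratin also called histone deacetylase inducible keratin, had the largest difference of the 6 in the main fit and the lowest intensities. Krt7 had the larger difference with 16 added in place of a floor (2.58 against 2.50) and without control 2 and control 3 (2.97 against 2.62). The Krt23 probe set 1418213_at read 49.6, 32.9 and 33.8 in the controls and 279, 368 and 275 in the replacement arrays. Control 1 was the highest control and still far below the lowest replacement array. The geometric mean went from 40.7 to 305, a log2 difference of 2.91 (SE 0.271, n = 2 and 3, limma adjusted p = 4.13e-04), and the 95% interval of the fold ran from 4.92 to 11.4. It was 3.19 without control 1 (adjusted p = 0.0644) and 2.62 without control 2 and control 3 (adjusted p = 0.0791).

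**Figure D2:**
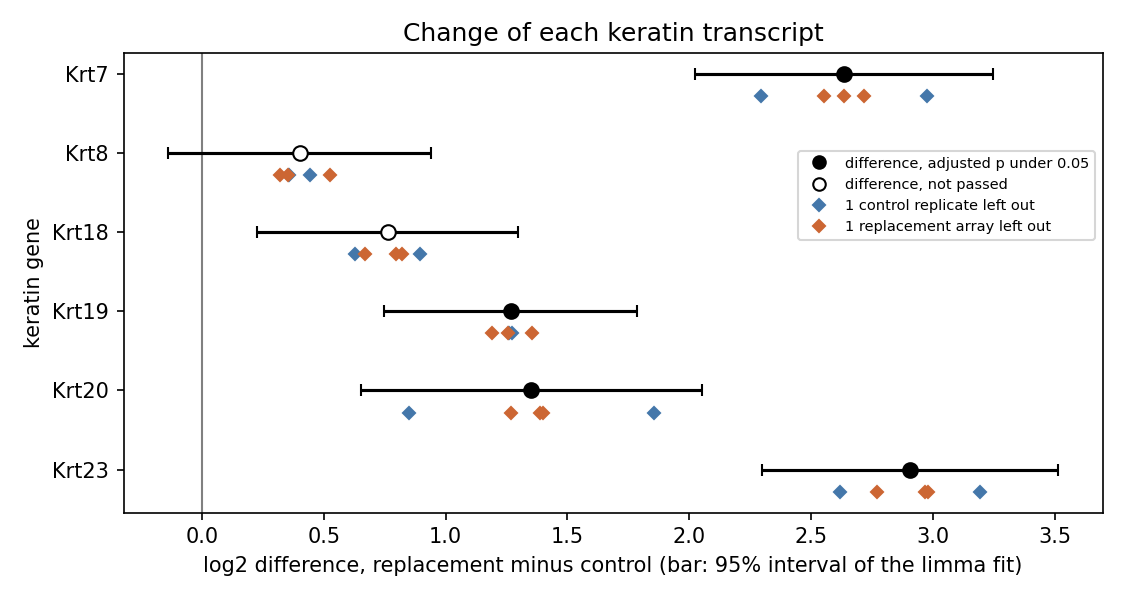
Log2 difference, replacement minus control, of the 6 keratin genes (circles, filled where the limma adjusted p was under 0.05) with the 95% interval of the fit, and beneath each the difference with 1 replicate left out (diamonds). Leaving out a control replicate (blue) moved Krt20 most, from 1.35 to 0.85 or 1.86, and Krt19 hardly at all.

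Fitted over all 26664 probe sets in place of genes, 3 of the 8 keratin probe sets were higher at a limma adjusted p under 0.05, against 2.21% of all probe sets. They were those of Krt7 (adjusted p = 0.00583), Krt19 (adjusted p = 0.0305) and Krt23 (adjusted p = 0.00463). Krt20 did not pass there (adjusted p = 0.0726), so its call depends on testing 1 probe set per gene. Within females the log2 differences were 2.98 for Krt7, 0.40 for Krt8, 0.80 for Krt18, 1.18 for Krt19, 0.77 for Krt20 and 2.68 for Krt23. Within males they were 2.29, 0.45, 0.82, 1.42, 2.02 and 3.07 in the same order. The male values set replacement 1 alone against the averaged control 2 and control 3, so they have no spread. Each sex held 1 control replicate, so sex and control replicate cannot be told apart in the spread of Krt20. With sex as a covariate the same 4 keratins passed, Krt20 at 1.30 (limma adjusted p = 0.0219).

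Since type I and type II chains assemble in pairs, the log2 difference of 2 keratins within an array was compared between the groups, for 6 pairs. Exact two-sided permutation tests of 2 against 3 replicates cannot give a p below 0.1, so none of these could pass 0.05. Krt8 and Krt18 were brighter than at least 99.2% of probe sets on every array, and the part of this in the shifts was not tested. Krt7 minus Krt8 was -3.51 (SD 0.42) in controls and -1.28 (SD 0.37) in replacement samples, so the ratio of the type II signals moved 4.71-fold towards Krt7 (exact permutation p = 0.1, adjusted over the 6 pairs p = 0.2). Krt23 minus Krt18 moved by 2.14, or 4.42-fold, and Krt19 minus Krt18 by 0.50, both with the smallest possible exact p of 0.1 (adjusted p = 0.2). Krt8 minus Krt18, the usual pair of simple epithelia, moved by -0.36 (exact permutation p = 0.2, adjusted p = 0.3), with all replacement arrays below all control arrays. Krt20 minus Krt18 moved by 0.59 (exact permutation p = 0.4, adjusted p = 0.48). That shift was 1.23 without control 1 and -0.05 without control 2 and control 3. Krt19 minus Krt20 moved by -0.09 (exact permutation p = 0.8), by -0.58 without control 1 and by 0.41 without control 2 and control 3.

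**Figure D3:**
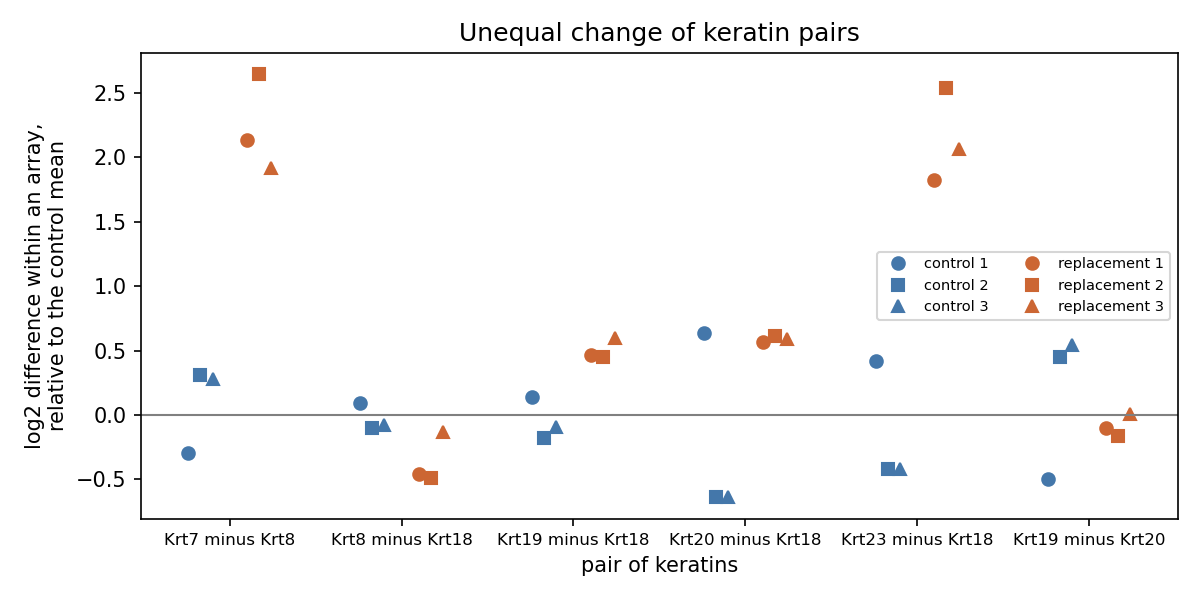
Log2 difference between 2 keratins within each array, set relative to the control mean of that pair, for 6 pairs (control arrays blue, replacement arrays orange). Krt7 over Krt8 and Krt23 over Krt18 shifted far up on all 3 replacement arrays, whereas control 1 lay with the replacement arrays for Krt20 over Krt18.

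In gene order Krt8 and Krt18 are direct neighbours on chromosome 15, the type II cluster, and Krt20 and Krt23 are direct neighbours on chromosome 11, the type I cluster. The next genes tested beside these pairs did not pass: Krt78 (-0.48, SE 0.252) and Eif4b (0.54, SE 0.251) beside Krt8 and Krt18, and Krt12 (-0.17, SE 0.259) beside Krt20. Beside Krt7 lies Krt80, with a difference of 0.09 (SE 0.412), and the nearest gene tested on the other side is Krt88, which was higher. The nearest genes tested around Krt19 are Krt36 (1.08 or more) and Krt14 (0.34, SE 0.284). The array reads 42 other keratin genes, most of them of skin, hair and stratified epithelium, of which 20 were tested, with a median log2 difference of 0.10. With 1 probe set per gene none was lower and 2 were higher, Krt36 and Krt88, the latter outside the lists of genes used here and named after its value was seen. In the fit over all probe sets Krt88 did not pass (limma adjusted p = 0.0595). Krt36, a keratin of hair and tongue, was under the floor in all controls but read 32.3, 34.8 and 34.7 in the other group, which put the log2 difference at 1.08 or more. It met the filter through the replacement arrays alone and so had to differ, and its call is not read as a test. Krt88 read 28.2, 33.9 and 29.2 in controls and 62.9, 83.2 and 55.1 in replacement arrays, a difference of 1.15 (SE 0.257, limma adjusted p = 0.0242). The group mean of any of these 20 keratins did not exceed 273. Krt10 (-0.68, SE 0.228) and Krt78 did not pass. Krt6a, a keratin of stressed and wounded skin, did not pass on its brightest probe set (0.88, SE 0.288). Another of its probe sets was higher in the fit over all probe sets (1.68, SE 0.250, limma adjusted p = 0.0149). On that probe set no control read above 19.3, so the controls lay at or near the floor. The replacement arrays alone were enough to meet the filter, so this call is not read as a test. Krt5 (-0.31) and Krt14, the basal pair of stratified epithelium, did not pass, and Krt13, Krt15 and Krt17 were too dim to be tested.

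Genes around the keratin network were described by lists, where 4.46% of all genes tested were higher and 4.66% lower. Without the filter on dim probe sets no gene passed in the lists of anchors, linkers, other intermediate filaments, villus enterocytes, squamous epithelium and mesothelium. In the list of proteins that anchor keratin filaments at desmosomes and hemidesmosomes, 4 of 14 genes were higher and 1 lower, with a median difference of 0.73. The plakin Ppl (1.54, SE 0.237) and the plakophilin Pkp2 (1.38, SE 0.255) were higher, as were Dsc2 (1.19) and Pkp3 (1.05). Dst, a plakin listed for its hemidesmosomal form, was lower (-1.49, SE 0.256), and which form its probe set reads is unknown here. The other 9 anchors did not pass. Among them Dsp, desmoplakin (0.14, SE 0.239), Pkp4 (0.14), Itgb4 (0.18), Jup (-0.04) and Perp (-0.05) differed little. Larger differences were read for Pkp1 (1.84, SE 0.654), Itga6 (0.85), Evpl (0.79) and Dsg2 (0.66). Of 16 keratin linkers, chaperones and regulators 1 was higher and 1 lower, with a median of 0.14. Sfn (14-3-3 sigma), of a family that binds Krt18, differed by 1.41 (SE 0.357, limma adjusted p = 0.0396), and Eppk1, epiplakin, a plakin that binds keratin filaments, differed by -1.17 (SE 0.265, limma adjusted p = 0.0258). Fam83h, which recruits a kinase to keratin filaments (0.85, SE 0.251), and the 14-3-3 protein Ywhaz (0.61, SE 0.226) did not pass. The call of Sfn was lost with quantile normalization and that of Eppk1 with scaling to the array medians.

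Of 11 tested intermediate filament genes other than keratins 2 were higher and none lower, with a median of 0.04. Lmna, the gene of the nuclear lamins A and C, read 84.7, 54.7 and 56.5 in controls and 478, 385 and 343 in replacement arrays. Its arrays were far apart, and its log2 difference of 2.54 (SE 0.275, limma adjusted p = 7.88e-04) was close to that of Krt7. Nes, nestin, read 10.8 in control 1, under the floor. It differed by 1.88 (SE 0.469, limma adjusted p = 0.0370), but 0.93 without control 1, 2.84 without control 2 and control 3, and 1.005 with the mean of its probe sets. The list had 1 higher gene in place of 2 with that mean and with quantile normalization. Lmnb1 (0.57, SE 0.239) and Des (1.02, SE 0.475) did not pass, and Vim, vimentin, the mesenchymal filament protein, differed by 0.01 (SE 0.377).

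Of 19 transcription factors and regulators of gut and other epithelia 2 were higher and none lower, with a median of 0.07. Grhl3, a grainyhead factor of surface epithelia, was under the floor in all controls and read 63.3, 65.4 and 63.7 in the other group, which put the log2 difference at 2.00 or more. Like Krt36 it met the filter through the replacement arrays alone, so its call is not read as a test. Esrp1, a splicing regulator of epithelial cells, was higher by 1.37 (SE 0.271). Grhl1 (0.92, SE 0.253) and Elf3 (0.82, SE 0.226) did not pass. Cdx2, the intestinal homeobox factor, differed by 0.20 (SE 0.234). In the list of villus enterocyte genes, the cells that Krt20 marks, none of 12 was higher at a limma adjusted p under 0.05 and 1 was lower, Anpep (aminopeptidase N, -1.16, SE 0.298), with a median of -0.19. With scaling to the array medians Anpep did not pass. Lct (-0.87, SE 0.307), Slc5a1 (-0.41, SE 0.225) and Apob (-0.35, SE 0.278) did not pass.

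**Figure D4:**
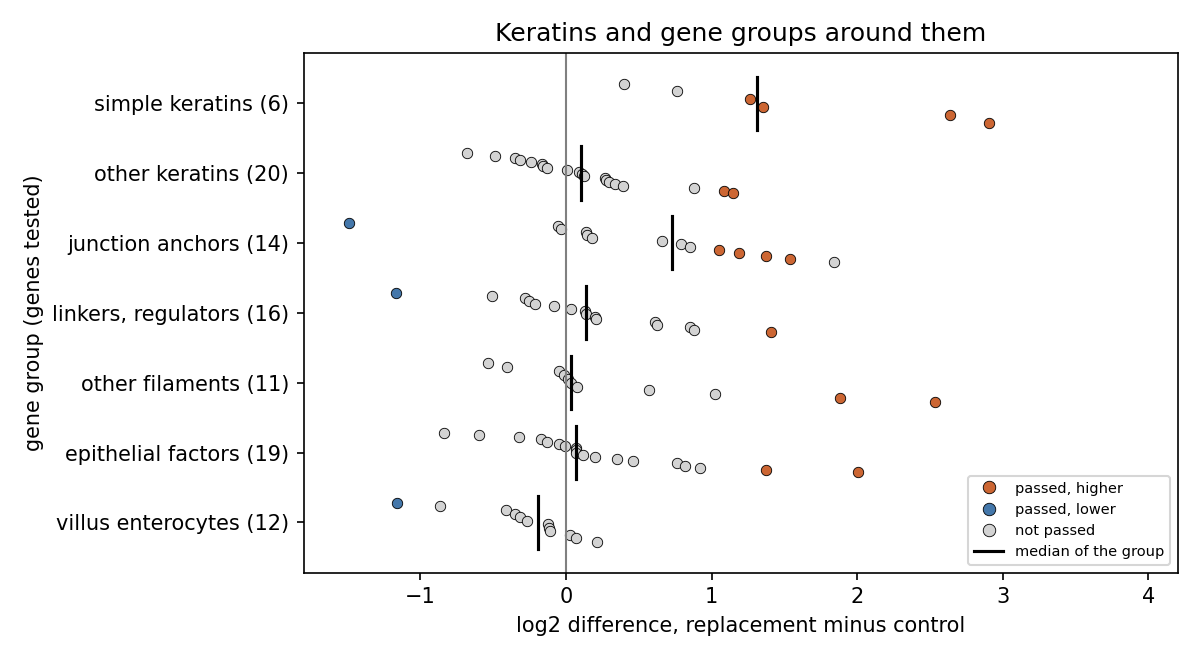
Log2 differences, replacement minus control, of the 6 simple keratins, the other keratins tested and the genes of 5 lists, 1 point per gene, coloured where the limma adjusted p was under 0.05, with a bar at each median. The simple keratins have a median of 1.31 and the junction anchors of 0.73, whereas the medians of the other groups lie between -0.19 and 0.14.

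Krt7, Krt8, Krt18 and Krt19 are also carried by other epithelia and by mesothelium, the lining of the gut's outer surface, so markers of such cells were read beside them, leaving the 6 keratins out of each list. Of 3 tested mesothelium markers of 6 listed 2 were higher, Msln (2.09, SE 0.350) and Upk1b (2.03, SE 0.279), while Upk3b differed by 0.02 (SE 0.412) and Wt1 was under the floor on all arrays. The summed intensity of that list was 89.0 to 147 in control and 235 to 353 in replacement arrays, and its part in the keratin results was not tested. Of 8 tested squamous markers of 12 listed Sprr1a was higher (1.34, SE 0.270) and Lor (-0.75), Dsc3 (-0.38) and the brightest probe set of Krt6a did not pass, with sums of 340 to 363 and 427 to 535. With the mean of a gene's probe sets 2 squamous markers were higher. Of stomach surface markers none of 3 tested passed (Gkn3 0.81, Tff2 0.41, Tff1 0.22), with sums of 331 to 393 and 420 to 554 and Muc5ac under the floor. Tuft cell markers summed to 108 to 117 in control and 143 to 166 in replacement arrays with none of 6 passing (Avil 0.77, Trpm5 0.34, Dclk1 -0.20, Chat 0.10). The part of these groups was not tested either.

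None of 7 goblet cell markers passed (Spdef 0.56, Agr2 0.54, Clca1 0.23, Fcgbp -0.20), with sums of 11992 to 16311 in control and 10129 to 18492 in replacement arrays. None passed of 8 mesenchyme markers (Des 1.02, Acta2 -0.69, Col1a1 -0.67, Dcn 0.35; sums 356 to 1478 and 566 to 636). The same held for 5 immune markers (Ptprc -0.61, Cd74 -0.70, Cd79a -0.20, Cd8a 0.08; sums 345 to 921 and 412 to 671) and 4 endothelial markers (Tek -0.62, Emcn -0.57, Cdh5 0.30, Kdr -0.30; sums 73.0 to 235 and 81.0 to 140.0).

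For each keratin the 3 genes with the most similar profile were found, by the root mean square difference of log2 values over the 6 arrays after centring each gene on its own mean. That choice favours genes sharing the order of arrays with the keratin, so a shared highest or lowest array is no separate result. Nearest to Krt7 were Fdps (0.11) and Msmo1 (0.12), enzymes of sterol synthesis, and Tspan1 (0.12), a tetraspanin. Fdps read 111, 141 and 160 in controls and 777, 864 and 618 in replacement arrays, and like Krt7 it was lowest in control 1 and highest in replacement 2. Nearest to Krt23 were Arl14 (0.11), Cd14 (0.17), a receptor for bacterial lipopolysaccharide, and Prss22 (0.17), each with a log2 difference between 2.64 and 2.96. Arl14, a small GTPase, read 33.0, 24.3 and 26.6 in controls and 203, 298 and 184 in replacement arrays, with control 1 and replacement 2 the highest of their groups, as for Krt23.

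Nearest to Krt19 were L1cam (0.06), a cell adhesion molecule, Wfdc18 (0.06) and Rhbg (0.07), an ammonium transporter, with log2 differences of 1.22 to 1.26, though Wfdc18 and Rhbg lay near or under the floor in controls. Nearest to Krt20 were Cerk (0.13), ceramide kinase, Ecscr (0.14) and Tmcc3 (0.15). In all 3 control 1 was the highest control, which the choice by likeness to Krt20 favours. For Cerk it read 50.7 against 23.2 and 25.8, and the log2 difference of 1.31 was 0.78 without control 2 and control 3. Ecscr read 9.1 and 13.7 in control 2 and control 3, under the floor, so its difference rests partly on floored values. Nearest to Krt18 were Idh1 (0.07), Wdr74 (0.07) and Ppme1 (0.08), and nearest to Krt8 were Lypd8 (0.04), Eef2 (0.05) and Celf4 (0.05), the last with both control replicates at the floor.

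Together with Krt88, 30 genes that are no members passed among the listed and the similar genes. The similar genes were picked for a profile like that of a keratin, and Krt36 and Grhl3 met the filter through the replacement arrays alone. Nes, Wfdc18, Rhbg and Ecscr also had control values under the floor. The 30 are thus not a result to set against the 4.46% of all tested genes that were higher and the 4.66% that were lower. All 30 lost the call when control 1 was left out and when control 2 and control 3 were left out, 5 lost it without replacement 1, 12 without replacement 2 and 19 without replacement 3. None changed sign in these fits. Where only 1 control replicate was left, its spread was taken to equal that of the replacement group.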

How the data were processed

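The submitters' processing notes name GCRMA and limma, without versions. The deposited values are linear intensity values per probe set, scaled by the authors before deposit as the values show; how probes were summarised is not stated. Such scaling makes every difference relative to the array's total signal. Values were floored at 16 and log2 was taken, and probe sets at 16 or more on 3 or more of the 6 arrays were kept. Names came from the platform annotation, and a gene was read by its brightest kept probe set on the mean log2 scale (12994 genes). Replacement was compared with control by limma 3.58.1 in R 4.3.3 (lmFit, eBayes), with Benjamini-Hochberg adjustment over all genes (or all 26664 kept probe sets) and a threshold of 0.05. SEs are those of the moderated fit. Control 2 and control 3 were averaged to 1 replicate, since the SD of their log2 ratio, 0.115, was close to that of 18 hybridization controls (0.0824 for this pair, 0.0812 to 0.134 for any pair).

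The members, lists and rules were chosen with earlier results of these data known. Named genes are the 6 keratins, up to 4 genes of smallest p per list and the 3 genes most alike in profile per keratin. Cdh1, Cdh2, Vil1, Vim, Cdx2, Krt5, Krt13, Krt14, Krt15, Krt17, Pkp3, Krt88 and the neighbours in gene order were added with their values seen. So were the 9 junction anchors that did not pass. The fit was tested on simulated data. Figures were drawn with matplotlib 3.10.9. Alternatives were other replicates, pairing, scaling, floor, filter, eBayes options, probe set summaries, sex as a covariate and each replicate left out. Arrays have no read depth, and their number limits the precision.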

Additional observations from a re-analysis of the deposited data

How the results depend on the processing

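The log2 differences of all 6 keratins stayed above 0 in each of the 15 alternatives. Krt7 and Krt23 passed in 12 of them, Krt19 in 11, Krt20 in 9, Krt18 in 3 and Krt8 in none. With 1 replicate left out at a time they ran from 2.30 to 2.97 for Krt7, 1.19 to 1.35 for Krt19, 0.85 to 1.86 for Krt20 and 2.62 to 3.19 for Krt23, and the counts of genes from 3 to 827 higher and from 1 to 833 lower, against 580 and 605. Those counts were 8 and 3 without control 1, 3 and 1 without control 2 and control 3, 272 and 261 without replacement 2, and 207 and 167 without replacement 3. Without a filter, which tests more genes, 70 genes were higher and 92 lower. Krt7 (2.63, adjusted p = 0.0716), Krt19 (1.27, adjusted p = 0.0662), Krt20 (1.35, adjusted p = 0.234) and Krt23 (2.91, adjusted p = 0.0651) did not pass there. The unadjusted limma p also rose for these 4, for Krt7 from 3.16e-06 to 0.00114, and fell for Krt8 and Krt18, and the cause was not tested. Krt18 passed with control 2 and control 3 separate (0.72), with 16 added in place of a floor (0.76, adjusted p = 0.0489) and with trend and robust options (0.76, adjusted p = 0.0216); the cause was not tested. With control 2 and control 3 separate 1118 genes were higher and 1234 lower. With the replicate number as a replicate block there were 994 and 1108, and the same 4 keratins passed. The deviations of same-numbered samples correlated at -0.02, -0.0008 and -0.05 over genes, and no sample correlated best with its own number. With control 2 and control 3 nearly alike this check cannot exclude a pairing, so whether same-numbered samples share more than a number is unknown here. Scaling to the array medians left 386 genes lower, and its cause was not tested; 446 were higher there. The 8 probe sets of the 6 keratins were above the floor on every array.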
